A study of Mus musculus with 77 samples.

Results

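H3K27me3 was mapped by CUT&RUN in wild-type mouse B cells after TAT-Cre and CpG and in naive cells, and the 6 libraries of that pair of groups, 6 of 77 in the series, are described here. They were taken by the antibody, the genotype and the "tat" mark in their titles. The 3 libraries of the 24 h group came from CD23+ splenic B cells of female WT mice that were given 80 µg TAT-Cre, a cell-permeable form of the Cre recombinase, for 45 min and were then cultured for 24 h with 1 µM CpG, a DNA ligand of the receptor TLR9. The 3 libraries of the 0 h group came from the same kind of cells taken naive, with neither TAT-Cre nor CpG nor culture. Because those treatments always came together, their separate parts cannot be told apart. The labels call the libraries biological replicates 1 to 3 and name no animal. P-values therefore describe only how far these libraries spread, which may be technical in part. The cells were enriched through biotinylated anti-CD23 and 3 µg of H3K27me3 antibody was used, with a yeast spike-in. In the wider study the same protocol deletes a floxed Xist gene, and these WT cells show what the protocol itself goes with.

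H3K27me3, trimethylation of lysine 27 of histone H3, is written by Ezh1 or Ezh2 in Polycomb repressive complex 2 and marks genes that are kept silent. In lymphocytes it lies over genes of other lineages, above all the Hox clusters and homeobox, forkhead and other developmental transcription factor genes, whose promoters are rich in CG. It also lies over some genes that B cells use only after activation. On the inactive X chromosome of female cells the mark depends on Xist. H2AK119Ub, made by Polycomb repressive complex 1, often shares its sites, while H3K27ac marks active promoters and enhancers and takes the same lysine as H3K27me3.

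Each library has 1 deposited list of peaks, called by the authors, with the total signal of a peak in the fourth column. The lists held 5798, 3981 and 5040 peaks at 24 h and 3905, 13325 and 19074 at 0 h, which is 51123 of the series' 883735 peaks. Read depths were not used here, and how far they set list length was not tested. The first 0 h library stands apart from the other 0 h libraries by its few and wide peaks, with a median width of 13.4 kb against 6.04 and 3.72 kb. None of 9 B cell marker genes had an H3K27me3 peak in any of the 6 libraries, and all 9 had an H3K27ac peak in each of the 6 TAT-Cre WT libraries of that mark. Of the markers of other cells, 2 to 4 of 8 T cell genes, 1 to 2 of 7 myeloid genes, 1 of 5 NK genes and 1 of 4 erythroid genes had an H3K27me3 peak at 24 h, against 1 to 6, 2 to 4, 1 and 1 at 0 h. H3K27ac lay over 1 to 2 of the T cell markers at 24 h and 1 at 0 h, and over no myeloid marker at either time. It lay over 1 NK marker, Klrb1c, in each 24 h library and over 0 at 0 h, and over 0 to 1 erythroid markers (Epor) at 24 h and 0 at 0 h.

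The peaks covered less of the genome in every 24 h library than in any 0 h library. They spanned 59.9, 35.1 and 55.8 Mb at 24 h, against 67.1, 115.2 and 97.4 Mb at 0 h, so the groups did not overlap. The means were 50.3 ± 13.3 and 93.2 ± 24.3 Mb (SD, n = 3 each), a log2 difference of -0.89 ± 0.33 (SE) with p = 0.1 by an exact two-sided permutation test, the smallest p that 3 against 3 allows. In bulk libraries, a mark lost from some of the cells and a weaker mark in all of them cannot be told apart. List length differed by less than the spread at 0 h (log2 difference -1.03 ± 0.71, exact permutation p = 0.4). With every list trimmed to its 3905 peaks of highest total signal, the groups overlapped, at 49.2, 34.8 and 48.9 Mb at 24 h and 67.1, 65.0 and 43.0 Mb at 0 h (log2 difference -0.39, exact permutation p = 0.3).

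Peak width gave no stable difference. The median width was 7.88, 6.67 and 8.48 kb at 24 h and 13.4, 6.04 and 3.72 kb at 0 h (log2 difference 0.19 ± 0.55, exact permutation p = 0.7). In the trimmed lists it was 9.99, 6.75 and 9.82 kb at 24 h and 13.4, 13.5 and 9.17 kb at 0 h, which turned the difference to -0.44, and without the third 0 h library it was -0.24. Broad domains of at least 50 kb numbered 35, 8 and 35 at 24 h and 104, 83 and 9 at 0 h. Over the 2177 coding genes with a peak in all 6 libraries, the widest peak of a gene had a median of 12.7, 8.84 and 12.4 kb at 24 h and 16.3, 15.7 and 10.0 kb at 0 h. Of these genes, 200 had narrower widest peaks in every 24 h library than in any 0 h library and 24 had wider ones.

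**Figure D1:**
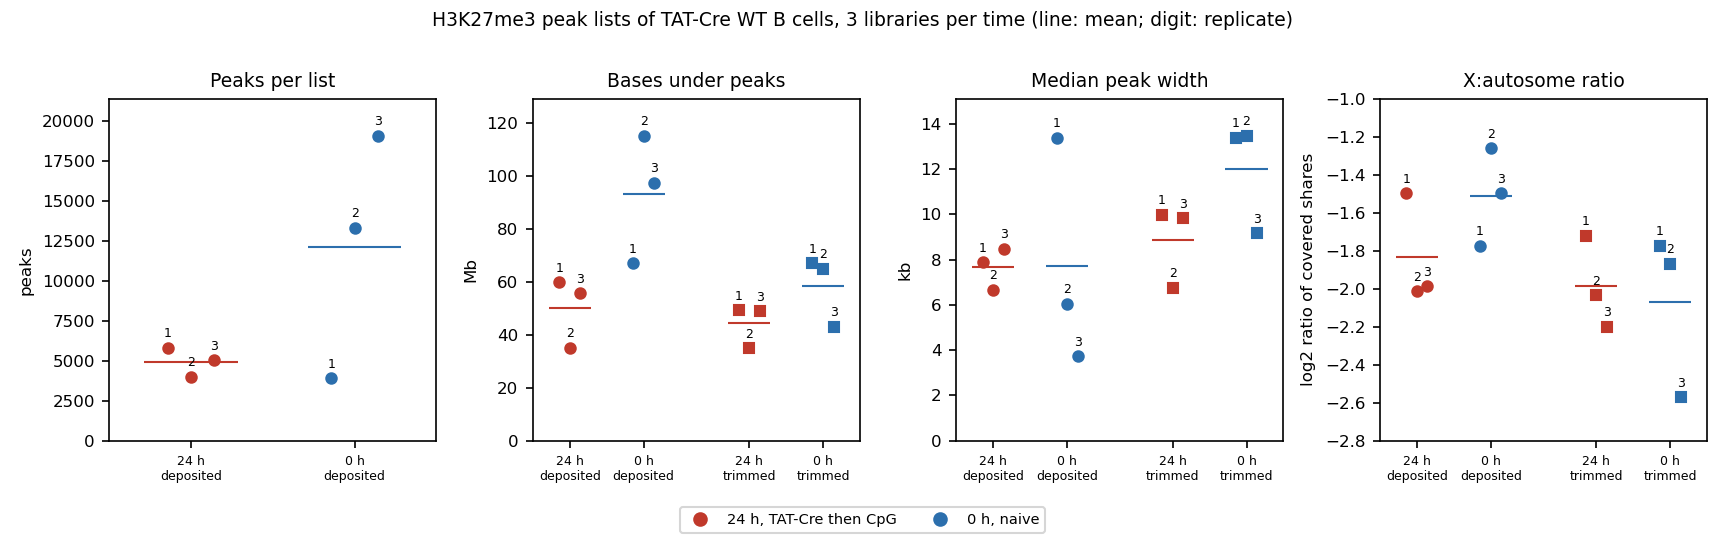
Number of peaks, Mb under peaks, median peak width (kb) and the log2 ratio of the X to the autosomes in each H3K27me3 library, 24 h left of 0 h. Circles are the deposited lists, squares the lists trimmed to 3905 peaks, lines the group means, and digits name replicates. Bases under peaks separate the groups in the deposited lists (35.1 to 59.9 Mb at 24 h, 67.1 to 115.2 Mb at 0 h) and overlap after trimming.

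The 24 h peaks lay mostly inside 0 h peaks. Between a 24 h and a 0 h library, 72.6 to 95.6% of the 24 h bases were under 0 h peaks and 29.2 to 64.7% of the 0 h bases were under 24 h peaks. The shared bases made up 28.8 to 52.0% of the bases under either list, compared with 47.6 to 56.8% between 24 h libraries and 40.1 to 50.0% between 0 h libraries, and these ranges overlapped. After trimming the same shares were 39.2 to 54.9%, 50.7 to 58.5% and 46.5 to 59.1%, which overlapped too.

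Many developmental Polycomb targets ranked higher at 24 h. Each gene was given the rank of its best peak by total signal, with rank 1 the highest, among peaks that touch the gene body or 2 kb on either side. Of 73 such genes on a list of transcription factor and signalling genes, 71 could be tested, and 29 of those ranked higher in every 24 h library than in any 0 h library, while 0 ranked lower in every one. That is 40.8% of the list, against 12.3% of all 4431 genes tested for higher and 5.42% for lower. The median difference of the rank score, log2 of 3906 over the rank, was 0.77 for the list and 0.10 for all genes tested. No member passed the limma test at an adjusted p of 0.05, and 23 had an unadjusted p under 0.05. Some members share a peak, and the 29 genes stand for 27 separate peaks of 68. Leaving out any 1 library gave 31 to 44 such genes, with 44 of 71 without the third 0 h library (background 20.9%). Ranking by the highest instead of the total signal gave 15 of 71, or 21.1% against 6.48% of all genes. A rank is relative to the other peaks of its list, so it shows order and not amount of the mark.

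**Figure D2:**
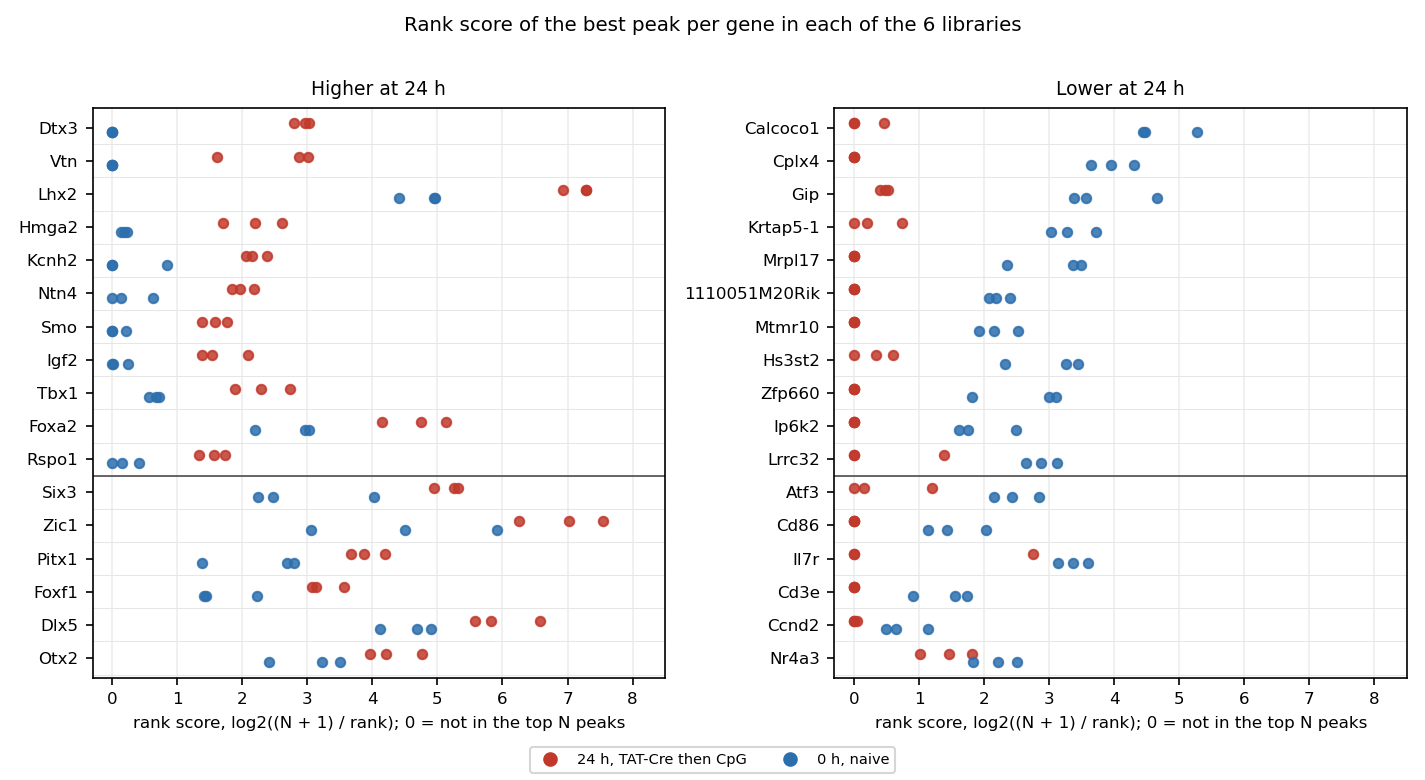
Rank score, log2 of 3906 over the rank of the best peak, in each H3K27me3 library (24 h red, 0 h blue). A score of 0 means no peak among the first 3905. The left panel has genes with the smallest p for higher scores at 24 h and, under its line, developmental targets; the right panel has those for lower scores and, under its line, activation and T cell genes. For Lhx2 the 24 h libraries rank 25 to 32 and the 0 h libraries 125 to 183.

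Lhx2, a LIM homeobox gene of forebrain, eye and limb development, was among the clearest. Its best peak ranked 25, 25 and 32 at 24 h, against 125, 127 and 183 at 0 h, with no overlap (rank score difference 2.39 ± 0.45 SE, limma adjusted p = 0.177). A single peak of 52.9, 43.8 and 53.8 kb ran over the whole gene in each 24 h library. At 0 h the gene lay under 2, 2 and 3 peaks, the widest of 36.2, 41.9 and 19.9 kb. In each 0 h library a break between peaks lay at a second start site inside the gene, and the third 0 h library had another at the first start site. With peaks less than 5 kb apart joined, Lhx2 ranked 29, 19 and 41 at 24 h and 28, 23 and 34 at 0 h, a score difference of -0.015. By highest signal the difference was -0.16. The joined ranks of both times overlapped. The 2 promoters of Lhx2 in RefSeq (GRCm38.p6, plus strand, 250 bases before to 50 after the start) are shown because a break covered the second in all 3 libraries at 0 h and reached the first, in part, in 1 of the 3. The capitals mark CG.
Lhx2 first promoter, chr2:38339031-38339330: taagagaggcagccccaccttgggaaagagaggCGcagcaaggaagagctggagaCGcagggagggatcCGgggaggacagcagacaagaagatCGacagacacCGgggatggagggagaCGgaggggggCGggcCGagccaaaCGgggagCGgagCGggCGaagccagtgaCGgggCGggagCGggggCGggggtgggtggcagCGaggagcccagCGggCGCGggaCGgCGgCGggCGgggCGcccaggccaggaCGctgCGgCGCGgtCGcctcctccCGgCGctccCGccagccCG
Lhx2 second promoter, chr2:38351058-38351357: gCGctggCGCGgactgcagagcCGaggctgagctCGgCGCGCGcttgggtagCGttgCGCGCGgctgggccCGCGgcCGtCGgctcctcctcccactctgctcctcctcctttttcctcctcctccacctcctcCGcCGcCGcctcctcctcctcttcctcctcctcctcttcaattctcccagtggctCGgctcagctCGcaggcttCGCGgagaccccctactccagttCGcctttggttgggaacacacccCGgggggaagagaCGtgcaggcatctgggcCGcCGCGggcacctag
The first promoter holds 34 CG, a number reached by 7.73% of the 32851 promoters in the table, and was under a peak, in full or in part, in 3 of 3 libraries at both times. The second holds 29 CG, a number reached by 12.9% of promoters, and was under a peak in 3 of 3 libraries at 24 h and 0 of 3 at 0 h. In the 8 mb1-cre WT libraries it was under a peak in every one, and in the 6 TAT-Cre Xist fl/fl libraries in none.

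Six3, a homeobox gene of eye and forebrain, had 1 peak in each 24 h library, of 35.9, 30.6 and 46.7 kb. At 0 h it had 2, 1 and 3 peaks, of at most 19.6 kb in the first library and 35.8 kb in the second. It ranked 127, 102 and 98 at 24 h and 829, 239 and 701 at 0 h (difference 2.26 ± 0.56, limma adjusted p = 0.348). The groups did not overlap, and with peaks joined the difference kept its sign at 1.11, while by highest signal it turned to -0.43. Foxa2, a forkhead factor of endoderm and floor plate, ranked 146, 111 and 220 at 24 h and 502, 478 and 848 at 0 h (1.94 ± 0.46, limma adjusted p = 0.328). Its 24 h peaks were 33.0, 28.5 and 27.9 kb wide and its 0 h peaks 23.3, 19.9 and 9.74 kb, again without overlap. For Foxa2 the difference was 0.69 with peaks joined and 0.07 by highest signal.

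Other members, named after their values were seen, showed the same order from different places in the ranking. Zic1, a zinc-finger gene of the neural tube, ranked 30, 21 and 51 at 24 h and 172, 65 and 467 at 0 h (2.45 ± 0.76, limma adjusted p = 0.383). Gata4, a factor of heart and gut, ranked 26, 26 and 39 at 24 h and 50, 46 and 150 at 0 h. Pitx1, a homeobox gene of the hindlimb and pituitary, ranked 214, 305 and 267 at 24 h and 564, 1498 and 607 at 0 h. All 3 kept the groups apart. Otx2, a head homeobox gene, ranked 212, 144 and 251 at 24 h and 344, 418 and 735 at 0 h. Olig2, which specifies motor neurons and oligodendrocytes, ranked 126, 130 and 160 at 24 h and 243, 235 and 422 at 0 h. Dlx5 and Dlx6, neighbouring homeobox genes under 1 peak, ranked 69, 41 and 82 at 24 h and 131, 151 and 226 at 0 h. Pax6, an eye and brain factor fixed for naming, did not separate the groups, at 28, 20 and 40 at 24 h and 66, 54 and 28 at 0 h (0.72 ± 0.55, limma adjusted p = 0.665).

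Over the whole list, 71 to 73 members had a peak at 24 h and 70 to 73 at 0 h, and 70 had one in all 6 libraries. The exceptions were Irx1, with a peak in 1 library at 24 h and 2 at 0 h, and Wnt5a and Shh, each with 2 and 2. The median rank was 189, 196 and 200 at 24 h and 373, 427 and 327 at 0 h. The median member was covered over 99.2, 89.3 and 100% of its window at 24 h and over 79.4, 87.6 and 86.9% at 0 h. Peaks per member were 1.33, 1.29 and 1.21 at 24 h and 1.22, 1.64 and 2.07 at 0 h, so the groups overlapped only through the first 0 h library. The list took 5.16, 6.26 and 4.73% of all peak signal at 24 h and 4.68, 3.21 and 2.67% at 0 h. These shares are of all peaks in the deposited lists, so list length enters them. The 2 lower 0 h shares came from the lists of 13325 and 19074 peaks. Hox genes, which did not separate the times by rank, took 1.92, 2.23 and 1.84% at 24 h and 1.83, 1.22 and 1.01% at 0 h. With peaks less than 5 kb apart joined, 45 of 71 members ranked higher without overlap, 63.4% against 16.8% of all genes tested in that way, and the median joined rank was 212, 168 and 211 at 24 h against 372, 291 and 265 at 0 h. The joined difference was near 0 at Lhx2 and the list as a whole kept its order.

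**Figure D3:**
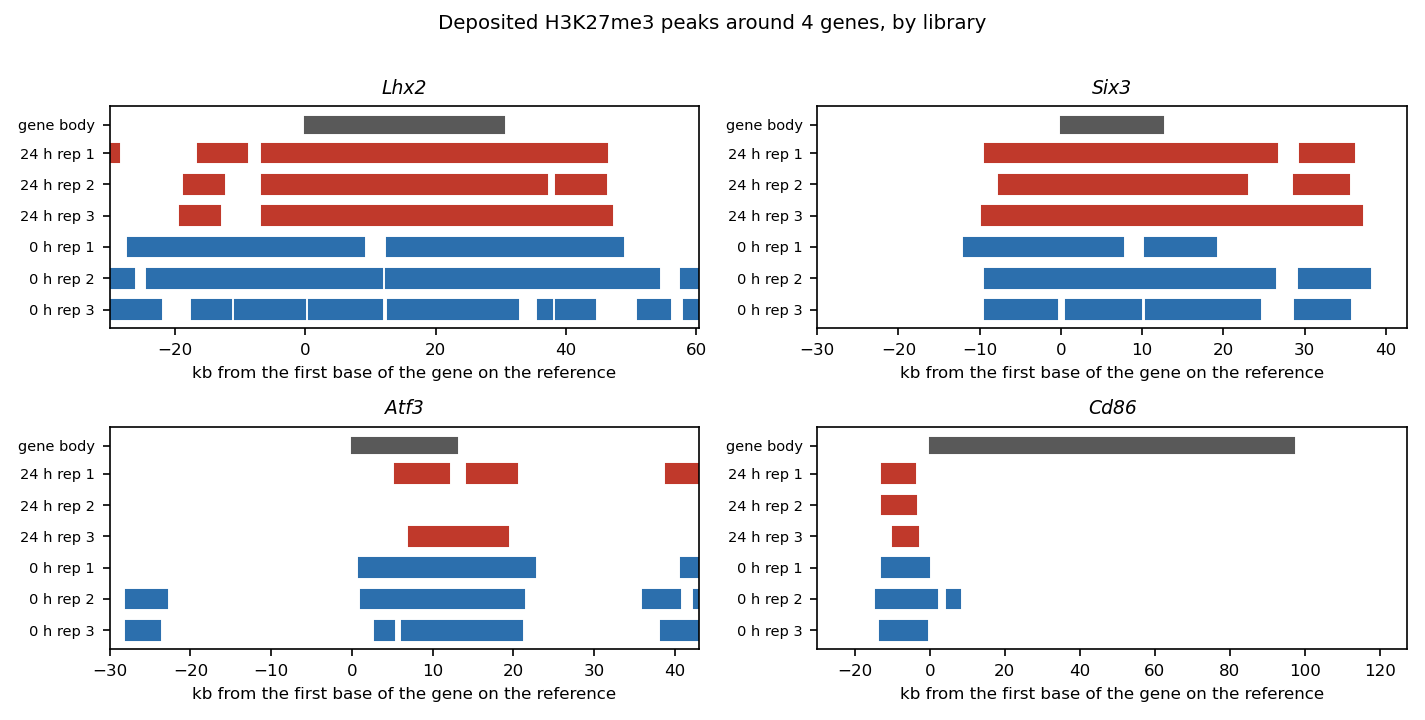
Peaks of each H3K27me3 library around Lhx2, Six3, Atf3 and Cd86, 24 h above 0 h, in kb from the first base of the gene on the reference, with the gene body in grey. Lhx2 is under 1 peak in each 24 h library and under 2 or 3 at 0 h. At Cd86 the 24 h peaks end 3.07 to 3.96 kb short of the gene and the 0 h peaks come within 2 kb of it or enter it.

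The coding genes with the smallest p for a higher rank also held genes outside the list. Hmga2, an embryonic chromatin protein, ranked 848, 639 and 1196 at 24 h and 3337, 3426 and 3555 at 0 h (1.99 ± 0.38, limma adjusted p = 0.179). Smo, the signal transducer of the Hedgehog pathway, ranked 1147, 1312 and 1499 at 24 h, and had no peak, 6120 and 3371 at 0 h (1.50 ± 0.31, limma adjusted p = 0.246). By highest signal the difference was 0.92 for Hmga2 and turned to -0.61 for Smo. Tbx1, a T-box gene of the pharyngeal arches, ranked 1052, 797 and 584 at 24 h and 2646, 2446 and 2370 at 0 h, with 1.66 ± 0.39 by total and -0.12 by highest signal. Igf2, the imprinted fetal growth factor, ranked 1347, 1501 and 920 at 24 h and 3874, 3901 and 3303 at 0 h (1.58 ± 0.35, limma adjusted p = 0.286), and by highest signal the difference was 0.71. Vtn, Kcnh2, Ntn4, Rspo1 and Dtx3 were also among these genes, as were the list members Foxa2 and Lhx2.

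The Hox clusters, long known as Polycomb targets, did not separate the times. All 39 Hox genes were tested and 0 separated the groups in either direction, with a median rank score difference of 0.63. Their median rank was 10, 9 and 11 at 24 h and 6, 31 and 45 at 0 h, and after joining it was 7, 7 and 8 at 24 h and 7, 8 and 7 at 0 h. The Hoxc cluster was covered over 100, 99.3 and 100% at 24 h and 100, 97.4 and 99.3% at 0 h, and it held the widest peak of every list, 194.4, 152.0 and 239.5 kb at 24 h and 265.7, 153.9 and 170.1 kb at 0 h. The Hoxa cluster was covered over 75.1, 62.6 and 77.9% at 24 h and 68.8, 85.3 and 77.1% at 0 h. Cdkn2a and Cdkn2b, cell-cycle inhibitors silenced by Polycomb, lay under 1 peak that ranked 13, 11 and 23 at 24 h and 17, 15 and 22 at 0 h (0.26 ± 0.51, limma adjusted p = 0.859). Gata3, a T cell factor, ranked 37, 28 and 43 at 24 h and 47, 39 and 25 at 0 h.

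The developmental list was read in the other systems with the same measure. In TAT-Cre Xist fl/fl cells, 7 of 68 members ranked higher at 24 h without overlap, 10.3% against 6.46% of all genes tested there. In mb1-cre WT cells, which carry the mb1-cre transgene, got no TAT-Cre and were stimulated with CpG, it was 16 of 71, 22.5% against 5.09%. With peaks joined these were 3 of 69 (4.35% against 6.96%) in Xist fl/fl cells and 7 of 71 (9.86% against 5.68%) in mb1-cre WT cells. Whether the shares of the list differ between systems was not tested. For H2AK119Ub in TAT-Cre WT cells, 20 of 34 tested members ranked higher without overlap, 58.8% against 22.1% of all genes, and 10 of the 34 passed the limma test against 8.88% of all genes. The H2AK119Ub lists were 34262 peaks long on average at 24 h and 17823 at 0 h, and 67 to 69 of the 73 members had a peak at 24 h against 27 to 44 at 0 h. Gata4 had H2AK119Ub ranks of 51, 48 and 60 at 24 h and 341, 662 and 1748 at 0 h (a score difference of 3.80, limma adjusted p = 0.011). None of the 73 had an H3K27ac peak in any library.

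**Figure D4:**
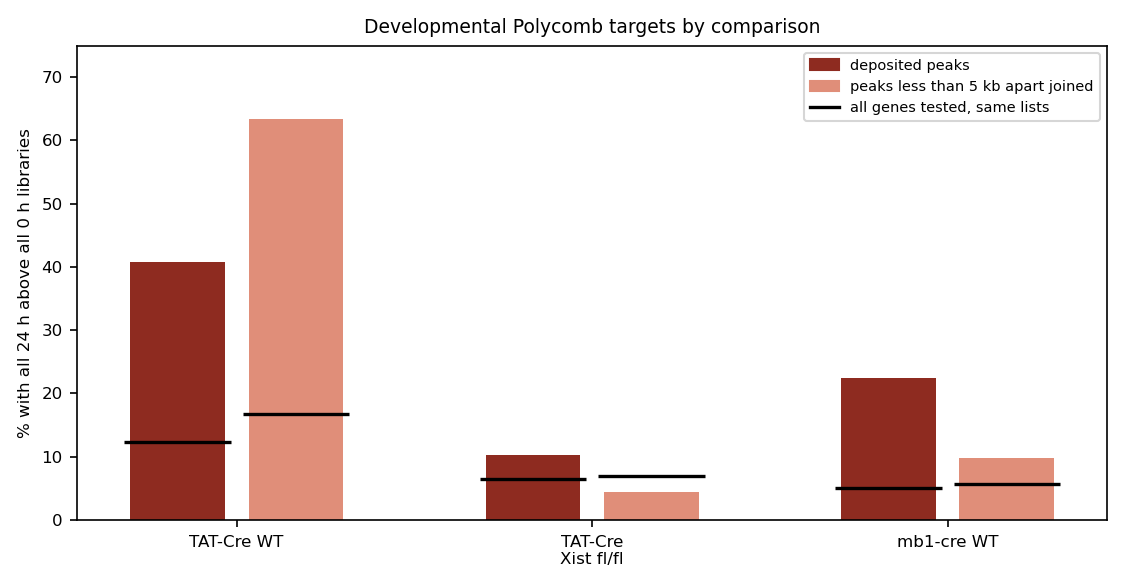
Percent of tested developmental Polycomb targets that ranked higher in every 24 h library than in any 0 h library, in TAT-Cre WT, TAT-Cre Xist fl/fl and mb1-cre WT cells. Dark bars are the deposited peaks, light bars peaks joined across gaps under 5 kb, and black lines all genes tested. TAT-Cre WT stands at 40.8% and 63.4%, Xist fl/fl at 10.3% and 4.35% and mb1-cre WT at 22.5% and 9.86%.

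Gene by gene, 3 of 4431 genes passed the limma test: Dtx3 was higher (0.0226% of genes) and Calcoco1 and Cplx4 were lower (0.0451%) at 24 h. At an unadjusted p under 0.05 there were 289 higher and 190 lower. In each case the peak had crossed the edge of the 2 kb window while the block of mark itself was there at both times. Calcoco1, a coiled-coil coactivator, had no peak, rank 2844 and no peak at 24 h and ranks 175, 179 and 101 at 0 h (-4.58 ± 0.41, limma adjusted p = 0.0127). The block common to its 0 h peaks, 27.4 kb at chr15:102677672-102705093 on mm10 and free of coding genes, was under 24 h peaks over 93.0, 85.7 and 84.7% of its length. Peaks over that block ranked 137, 323 and 131 at 24 h and 175, 179 and 101 at 0 h, and those ranks overlap.

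Cplx4, a complexin of retinal synapses, had no peak at 24 h and ranks 253, 198 and 314 at 0 h (-3.96 ± 0.37, limma adjusted p = 0.0127). The common 0 h block spans 19.2 kb and holds Rax, a homeobox gene of the eye field. It was covered over 80.0, 69.9 and 80.8% at 24 h, by peaks that ranked 190, 176 and 204 there. Dtx3, a Deltex-family ubiquitin ligase gene, had ranks 562, 501 and 479 at 24 h, against no peak, no peak and 14779 at 0 h (2.93 ± 0.35, limma adjusted p = 0.0455). The common 24 h block of 12.4 kb, over Arhgef25 and Slc26a10, was covered over 98.5, 99.2 and 99.5% at 0 h too, by peaks that ranked 833, 873 and 550. Such genes entered the test through the libraries of 1 time, so that a difference in their scores was built in. None of the 3 could be tested with the gene body alone, where 0 genes passed the limma test (280 higher and 148 lower at an unadjusted p under 0.05). Leaving out a library left 0 to 5 calls.

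The next genes in the lower direction differed among themselves. Gip, a gut hormone gene, ranked 2791, 2719 and 2965 at 24 h and 329, 374 and 154 at 0 h (-3.40 ± 0.45, limma adjusted p = 0.0694). Its 24.3 kb block was still covered over 84.8, 81.9 and 84.5% at 24 h, in 2 peaks per library in place of 1, and the joined difference was -0.39. Krtap5-1, a hair keratin-associated gene, had ranks 2337, no peak and 3388 at 24 h and 403, 296 and 480 at 0 h (-3.03 ± 0.41, limma adjusted p = 0.0694). Of the 20.5 kb block, 60.1, 40.1 and 45.5% was covered at 24 h. By highest signal the Krtap5-1 difference was -0.70 (limma adjusted p = 0.9). With peaks joined, 47 of 4570 genes passed the limma test, all lower at 24 h, with Krtap5-1 at an adjusted p of 0.00823. At an unadjusted p under 0.05 there were 416 higher and 371 lower. Some of the 47, such as Cplx4, Mrpl17 and Mtmr10, had no peak at 24 h. They entered the test through 0 h alone and had to be lower.

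Few activation genes of B cells had an H3K27me3 peak. Of 41 genes on the list, 30 had no peak in any of the 6 libraries. Of the 11 with a peak, 8 had one in fewer 24 h than 0 h libraries and 0 in more. Nr4a3, Bcl2l1 and Nfkb2 had one in as many. Fewer was also the common direction over all coding genes. In the deposited lists 1325, 1149 and 105 coding genes had a peak in 0 libraries at 24 h and in 1, 2 and 3 at 0 h. The reverse held for 75, 6 and 0. The 8 genes are therefore not read as a trait of the list. Only 4 could be tested, and 3 of them (Cd86, Nr4a3 and Ccnd2) ranked lower without overlap, against 5.42% of all genes, while Bcl2l1 differed by 0.02. None passed the limma test. Cd86 entered the test through its 0 h peaks alone and so had to be lower. Over all coding genes the longer 0 h lists also held more genes, with 12.9 to 18.2% of coding genes under a peak at 24 h and 15.2 to 28.5% at 0 h. Il10, the cytokine, had no peak in the 24 h libraries and a peak in 2 of 3 at 0 h.

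Nr4a3, an immediate-early nuclear receptor, ranked 1413, 1113 and 1930 at 24 h and 685, 841 and 1102 at 0 h (-0.75 ± 0.41, limma adjusted p = 0.541). Its window was covered over 25.5, 22.3 and 21.2% at 24 h and 51.4, 65.6 and 42.9% at 0 h, which kept the groups well apart. In mb1-cre WT cells Nr4a3 passed the limma test, with ranks 2563, 2843, 2424 and 2828 at 24 h and 1140, 1282, 1090 and 1114 at 0 h (-1.17 ± 0.14, adjusted p = 0.0498), as 0.0426% of genes did there in the lower direction. Ccnd2, cyclin D2, had ranks 5230, no peak and 3766 at 24 h and 1769, 2762 and 2493 at 0 h (-0.75 ± 0.24, limma adjusted p = 0.383). It had an H3K27ac peak in 3 of 3 libraries at 24 h and 0 of 3 at 0 h, as had 1253 of 21631 coding genes. Cd86, the costimulatory ligand, had no peak at 24 h and ranks 1784, 1454 and 953 at 0 h (-1.53 ± 0.35, limma adjusted p = 0.304). The block beside it, over the calcium-sensing receptor gene Casr, was kept over 72.4, 75.2 and 56.2% at 24 h. The edge of that block drew back from the low-coordinate end of the 97.2 kb Cd86 gene. At 0 h the best peaks lay over only 0, 1847 and 0 bases of the gene body. An H3K27ac peak lay over Cd86 in 3 libraries at 24 h and in 1 at 0 h. The H3K27ac lists were longer at 24 h, at 7639 peaks on average against 2771 at 0 h. Of all coding genes, 28.8% had an H3K27ac peak in more 24 h than 0 h libraries and 0.499% in fewer. The H3K27ac peaks at Ccnd2 and Cd86 are therefore not read as a trait of these genes.

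Atf3, a stress-response and immediate-early factor named after its values were seen, had less cover around its own promoter at 24 h. Its best peak had ranks 3514, none and 1700 at 24 h and 545, 727 and 879 at 0 h (-2.02 ± 0.46, limma adjusted p = 0.304). The window was covered over 44.3, 0 and 46.9% at 24 h and 83.1, 82.0 and 65.9% at 0 h. In mb1-cre WT cells Atf3 passed the limma test, at ranks 5106, none, 3295 and 5548 at 24 h and 813, 837, 727 and 786 at 0 h (-1.78 ± 0.15, adjusted p = 0.00485). In Xist fl/fl cells the ranks were 6310, 796 and 4134 at 24 h and 722, 535 and 748 at 0 h (-1.16 ± 0.56, limma adjusted p = 0.772). Il7r, the interleukin 7 receptor of T cells and early B cells, is the CG-poor counterpart. Its ranks were 5772, none and 579 at 24 h and 442, 379 and 322 at 0 h (-2.45 ± 0.75, limma adjusted p = 0.383). The third 24 h library went against the others, with its 21.0 kb block covered over 45.5, 0 and 100% in the 3 libraries. In the third 0 h library the best peak reached the Il7r window by 126 bases and missed the gene body. With the gene body alone, or with 500 bp of overlap, the groups overlapped. The Il7r difference was then -1.25 both ways (limma adjusted p = 0.692 and 0.703). The H2AK119Ub score of Il7r fell by 3.62 on the log2 scale (limma adjusted p = 0.00333), where 10.1% of genes tested for that mark passed as lower. The 2 promoters, on the minus strand, from the same table and with the same marking, are shown since both were under a peak in 1 of 3 libraries at 24 h and 3 of 3 at 0 h.
Atf3 promoter, chr1:191183284-191183583: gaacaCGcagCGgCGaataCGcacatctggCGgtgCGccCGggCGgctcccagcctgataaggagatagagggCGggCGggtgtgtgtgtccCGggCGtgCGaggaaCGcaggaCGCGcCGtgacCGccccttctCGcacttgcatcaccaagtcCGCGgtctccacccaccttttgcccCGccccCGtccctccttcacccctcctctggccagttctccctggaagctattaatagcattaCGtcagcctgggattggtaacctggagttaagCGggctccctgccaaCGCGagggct
Il7r promoter, chr15:9529827-9530126: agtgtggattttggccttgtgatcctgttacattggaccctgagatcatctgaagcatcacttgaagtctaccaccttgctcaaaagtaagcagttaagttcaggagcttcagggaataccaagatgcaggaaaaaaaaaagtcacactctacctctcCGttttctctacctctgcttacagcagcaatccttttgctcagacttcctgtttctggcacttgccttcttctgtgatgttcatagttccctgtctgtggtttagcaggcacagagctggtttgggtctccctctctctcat
The Atf3 promoter holds 27 CG, a number reached by 15.5% of promoters, and the Il7r promoter 1, reached by 94.6%. No set-wide reading of CG was made, because 17274 of 21631 coding genes have a promoter in the table.

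Lists of genes of other blood lineages had few testable members and went both ways. Among 7 T cell genes tested, Cd3e and Il7r ranked lower without overlap, Il7r only with the 2 kb window and 1 bp of overlap. Cd3e, a chain of the T cell receptor complex, had ranks 4683, none and 4308 at 24 h and 1168, 2086 and 1326 at 0 h (-1.40 ± 0.33, limma adjusted p = 0.328). Among 5 myeloid genes tested, Cd14 and Cebpa were higher and Adgre1 lower without overlap. Cebpa, a granulocyte and macrophage factor, ranked 2458, 2904 and 2910 at 24 h and 3536, 4398 and 4388 at 0 h (0.46 ± 0.17, limma adjusted p = 0.409). Of 4 erythroid genes tested, Tal1 was higher and Slc4a1 lower. Polycomb's own subunit genes gave 1 higher, Cbx2, of 6 tested. In the germinal centre and plasma cell list 0 of 3 tested genes separated the groups. Prdm1, the plasma cell regulator, ranked 1825, 1344 and 1642 at 24 h and 1574, 1501 and 2737 at 0 h (0.23 ± 0.40). Of 33 follicular and mature B cell genes, 32 had no peak in any library. No peak was found in any of the 6 libraries over Bcl6, Irf4, Myc, Cd69, Cd83, Xist, Tlr7, Pax5, Ebf1 or Ezh2.

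**Figure D5:**
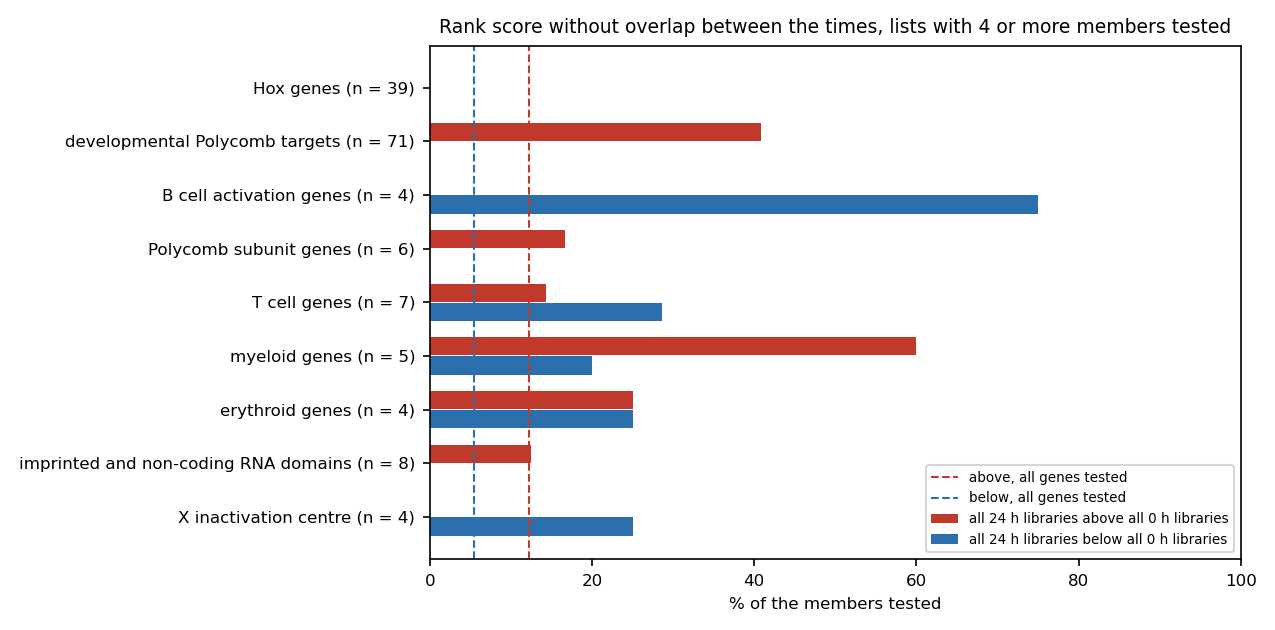
Percent of the tested members of each list with all 24 h libraries above (red) or below (blue) all 0 h libraries by rank score. Dashed lines are all genes tested, 12.3% above and 5.42% below. Developmental targets stand at 40.8% above and Hox genes at 0% in both directions, and lists with few tested members move in large steps.

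More genes had lost all peaks at 24 h than had gained them in the deposited lists, and the counts were even in trimmed lists. Of 4370 coding genes that had a peak in 3 or more of the 6 libraries, 105 (2.4%) had one in 0 of 3 libraries at 24 h and in 3 of 3 at 0 h, and 0 (0%) the reverse. In the trimmed lists the counts were 40 of 3193 (1.25%) lost and 41 (1.28%) gained, and 17 genes were lost both ways. Without the first 0 h library 1187 genes were lost, without the first 24 h library 215 and without the third 24 h library 200. A block common to the 0 h peaks could be drawn for 77 of the 105. At 60 of the 77 no 24 h peak touched it, at 8 it was touched in 1 or 2 libraries, and at 9, Cplx4, Mrpl17 and Mtmr10 among them, in all 3. The 77 blocks had a median length of 4.70 kb, shorter than the domains above.

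The share of a gene's window under peaks passed the limma test, lower at 24 h, for 36 of 6088 genes (0.591%) and higher for 0 (0%), with 14 higher and 681 lower at an unadjusted p under 0.05. Of the 36, 27 had no peak in any 24 h library and so entered the test through 0 h alone. Leaving out any 1 library left 0 calls. In the trimmed lists 27 genes passed as higher and 22 as lower. Drd5, a dopamine receptor gene, was covered over 0% in each 24 h library and over 66.8, 67.8 and 59.0% at 0 h (-64.5 ± 5.11 percentage points, limma adjusted p = 0.0371). Olfr1443, an olfactory receptor gene of a large family whose copies can share reads, was covered over 0, 0 and 1.86% at 24 h and 100, 100 and 86.1% at 0 h (-94.8 ± 6.69, limma adjusted p = 0.0357). Fosl1, an AP-1 subunit named after its values were seen, was covered over 0% at 24 h and 47.3, 36.3 and 38.4% at 0 h (-40.7 ± 4.43, limma adjusted p = 0.0416). Hmox1, the heme oxygenase gene named in the same way, was covered over 0% at 24 h and 46.8, 40.0 and 37.4% at 0 h (-41.4 ± 4.16, limma adjusted p = 0.0416). Drd5, Fosl1 and Hmox1 in mb1-cre WT cells had a peak in 4 of 4 libraries at 24 h.

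The losses were compared with the other systems over whole lists. Of the 105 genes, 63 (60%) had a peak in fewer 24 h than 0 h libraries in Xist fl/fl cells and 16 (15.2%) in more. Over all coding genes 10.1% had one in fewer and 8.60% in more, and over the 2967 with a peak in all 3 TAT-Cre WT libraries at 0 h it was 9.84% and 25.6%. In mb1-cre WT cells 9 of the 105 (8.57%) had a peak in fewer and 65 (61.9%) in more, against 1.07% and 25.2% of all coding genes and 1.28% and 25.4% of the 2967. The 24 h lists of mb1-cre WT cells were longer than their 0 h lists, at 11251 and 4623 peaks on average (exact permutation p = 0.0286). Of the 180 coding genes ranked lower without overlap, 89 could be ranked in Xist fl/fl cells and 68 of them were lower there too (959 of 1926 for all coding genes). For mb1-cre WT cells it was 102 of 161 (1576 of 3314 for all). Of the 394 ranked higher, 165 of 250 were higher in Xist fl/fl cells (967 of 1926 for all) and 200 of 319 in mb1-cre WT cells (1729 of 3314 for all). H3K27ac peaks appeared in more 24 h than 0 h libraries at 31 of the 180 genes and in fewer at 2. That is 17.2% with more, against 28.8% of all coding genes.

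The effect of time was tested against the other systems directly. Against mb1-cre WT cells, 8 of 5059 genes differed by the interaction term in limma, 4 higher in TAT-Cre WT cells (0.0791%) and 4 lower (0.0791%), and against Xist fl/fl cells 0 of 3527 did in either direction (0%), with 101 higher and 42 lower at an unadjusted p under 0.05. Of the library measures, the difference in time effect from mb1-cre WT cells was -2.32 for log2 peak number (exact permutation p = 0.00816), -1.74 for bases under peaks (exact permutation p = 0.0220) and -1.45 for the X to autosome ratio (exact permutation p = 0.0171). After adjustment over 8 such comparisons each of the 3 stood at 0.0588 (exact permutation, Benjamini-Hochberg), above the threshold. Bases under peaks were 158 Mb at 24 h and 87.7 Mb at 0 h in mb1-cre WT cells (exact permutation p = 0.0857), against 50.3 and 93.2 Mb in TAT-Cre WT cells.

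A smaller share of the X chromosome than of the autosomes was under peaks at both times, which leaves out any mark outside called peaks. Peaks covered 1.44, 0.595 and 0.962 Mb of the X at 24 h and 1.34, 3.25 and 2.34 Mb at 0 h. The log2 ratio of the covered share of X to that of autosomes was -1.49, -2.01 and -1.98 at 24 h and -1.77, -1.26 and -1.49 at 0 h (-0.32 ± 0.22, exact permutation p = 0.3), and in trimmed lists the difference was 0.086. Of 4 tested genes around the X inactivation centre, Cdx4, a caudal homeobox gene, ranked lower without overlap, at 937, 617 and 833 at 24 h and 86, 431 and 598 at 0 h.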

How the data were processed

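H3K27me3 CUT&RUN peak lists were read for the 3 libraries at 24 h and the 3 at 0 h. The signal columns hold each peak's total and highest signal as the authors deposited them, 1 list per library. The submitters' processing notes name Trimmomatic 0.32, Bowtie2 2.3.4.1, Picard, deepTools 3.5.1 and mm10, and the list names give SEACR. Nothing shows that signal shares a scale between lists, so peaks were ranked within lists. Longer lists raise presence and covered bases, so lists were also trimmed to 3905 peaks.

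Peaks were matched to 34328 RefSeq genes (GRCm38.p6, 21631 coding) by gene body plus 2 kb on either side, with at least 1 bp of overlap. The rank score is log2 of 3906 over the rank of a gene's best peak and 0 below that. Scores above 0 in at least 3 of 6 libraries, and the percent of the window covered, were tested with limma 3.58.1 (R 4.3.3, trend and robust) and Benjamini-Hochberg adjustment at 0.05. Library values had exact two-sided permutation tests over 20 splits. Python 3.11.15, numpy 2.4.6, pandas 2.3.3 and matplotlib 3.10.9 did the rest, and the fit was tested on simulated data.

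Named genes are coding genes: the 12 with the smallest p in each direction by rank, 8 by covered share, 5 with a peak in all libraries of 1 time and none of the other, up to 4 of each list and 20 fixed ones. Some genes that the rule names are not reported here. The text marks each gene that falls outside this rule. Members and the 17 lists (422 of 427 genes matched) were chosen with earlier results of these data known. Alternatives were trimming, the upper 50% of each list, joined peaks, another window, overlap, filter or ranking column, pooled spread, a replicate block and leaving out each library. Common blocks are the bases shared by the best peaks of 1 time's 3 libraries; they, and the settings for the developmental list, were chosen after seeing the data. Other antibodies and genotypes were not analysed here beyond the values given.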

Additional observations from a re-analysis of the deposited data

Results flagged for a closer look

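For 8 genes the effect of time on the rank score differed between TAT-Cre WT and mb1-cre WT cells by the interaction term in limma. The difference was -2.88 for Gm38426 (adjusted p = 0.00098), 2.71 for Dtx3 (adjusted p = 0.00364), -4.06 for Cplx4 (adjusted p = 0.00788), -3.47 for Krtap5-1 (adjusted p = 0.00828) and -3.98 for Gm39936 (adjusted p = 0.0194). It was 2.78 ± 0.43 (SE) for Lhx2 and for Gm13584 and Gm27197, which lie under the same peak (adjusted p = 0.0156). Gm38426 had ranks 419, 358, 274 and 443 in the 24 h mb1-cre WT libraries and no peak elsewhere in either system. It entered the test through those libraries alone, so that a difference in its scores was built in. Lhx2 ranked 28, 28, 35 and 38 at 24 h and 24, 18, 27 and 31 at 0 h in mb1-cre WT cells. With peaks less than 5 kb apart joined, the difference for Lhx2 was 0.11 (limma adjusted p = 0.897), the same as for Gm13584 and Gm27197. Joined, Dtx3 (2.09, limma adjusted p = 0.0601) and Gm39936 (-2.40, limma adjusted p = 0.214) also lost their calls. Those for Gm38426 (-2.59, limma adjusted p = 0.00159), Cplx4 (-3.62, limma adjusted p = 0.00504) and Krtap5-1 (-3.39, limma adjusted p = 0.00438) stayed past the threshold. At Cplx4 no 24 h TAT-Cre WT peak reached the window, although most of the block beside the gene was kept, as given above. The Krtap5-1 block was covered in full in all 8 mb1-cre WT libraries. By highest signal 0 of the 8 genes passed.

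The first 24 h library of mb1-cre WT cells had a median peak width of 8.51 kb, far from the other 3 of its group. Chance marks about 1 in 20 groups in this way.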

How the results depend on the processing

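Bases under peaks stayed lower at 24 h in each alternative, from -1.11 to -0.39 on the log2 scale (exact permutation p from 0.1 to 0.3). The difference in median peak width (0.19) turned to -0.44 in trimmed lists and ran from -0.24 (without the third 0 h library) to 0.69 (without the first) over the lists that leave out 1 library. The X to autosome difference (-0.32) turned to 0.086 in trimmed lists. The 3 genes called by rank became 0 with the replicate block, with the gene body alone, with the spread of 4 TAT-Cre groups and by percentile, 1 with 500 bp of overlap, 47 with joined peaks, and 0 to 5 without 1 library. The 36 genes called by covered share became 0 with the replicate block and with a filter of 1 library, 55 in the upper 50% of the lists, 86 with joined peaks, 1 with the spread of 4 groups, and 0 without any 1 library. The 105 genes with a peak in all libraries of 1 time and none of the other ranged from 125 to 1188 without 1 library. The 8 genes that differed from mb1-cre WT cells became 0 by highest signal and 80 with joined peaks. The 29 developmental targets became 15 by highest signal, 45 with joined peaks, and 31 to 44 without 1 library. Single genes that reversed were Lhx2 (-0.015 joined, -0.16 by highest signal), Smo (-0.61) and Tbx1 (-0.12 by highest signal). The cause was not tested. Same-numbered libraries deviated together with correlations of 0.08, -0.03 and -0.02, and differently numbered ones with -0.10 to 0.11. Whether a number stands for a shared animal or day cannot be told from these values, and the labels do not say. With the replicate block, bases under peaks had p = 0.25 in the exact permutation of signs, the smallest it can give. With 3 libraries a group, library tests cannot go below 0.1.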

Other observations

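Germinal centre genes outside the testable set held a further example. Rgs13, a regulator of G protein signalling in germinal centre B cells, named after its values were seen, had no H3K27me3 peak at 24 h and ranks 544, 613 and 6702 at 0 h. Its H2AK119Ub ranks were 19417, 5822 and 6715 at 24 h and 48, 46 and 69 at 0 h, a score difference of -5.23 ± 0.34 (SE, limma adjusted p = 0.000527). In that test 10.1% of genes passed as lower. Each 24 h rank of Rgs13 lay beyond the 2004 peaks of the shortest H2AK119Ub list and scored 0. Rgs13 thus entered the test through its 0 h ranks alone and had to be lower. H3K27me3 in mb1-cre WT cells ranked 4990, none, none and 5602 at 24 h and 642, 1107, 1451 and 809 at 0 h. Id2, an inhibitor of E proteins, had ranks 3270, none and 3204 at 24 h and 2025, 1000 and 1016 at 0 h, while its H2AK119Ub ranks overlapped, at 255, 429 and 275 at 24 h and 302, 246 and 336 at 0 h. Npas4, a neuronal immediate-early factor, had ranks 3964, none and 1960 at 24 h and 430, 552 and 1214 at 0 h (-2.23, limma adjusted p = 0.328).

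The share of covered bases per chromosome separated the times on chromosomes 4, 7, 8 and 17, which were higher at 24 h, and 1 and 6, which were lower. On chromosome 8 the means were 4.90% at 24 h and 4.44% at 0 h, and on chromosome 6 5.81% at 24 h and 6.18% at 0 h. No test was made of these shares.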
